A study of Mus musculus with 12 samples.

Results

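The cells described here were VC1 cells that received only the vehicle, DMSO, for 6 h. They were represented by 3 of the 12 expression arrays of the series, chosen because their titles name DMSO. The other 9 arrays were of cells given the compounds CDDO-Im at 0.05 uM, CDDO-Me at 0.1 uM or DMF at 15 uM for 6 h. Those 9 served only for normalization and for a check of how well the arrays agree. VC1 is a mouse lung cancer line, labelled as female lung adenocarcinoma of the A/J strain, an inbred strain prone to lung tumours. The cells were grown in DMEM with serum and antibiotics, and total RNA was hybridised to Illumina whole-genome bead arrays. All 3 arrays carried the same line, vehicle and time, and no untreated culture or normal lung array was used here. No label says that the 3 samples came from separate cultures, so the spread between them may be technical.

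Adenocarcinomas of the mouse lung resemble cells of the alveolus or the small airways. Alveolar type 2 cells make surfactant, flat type 1 cells exchange gas, and club, ciliated, goblet and basal cells line the airways. Such epithelial cells carry keratin filaments and E-cadherin junctions, which can give way to vimentin and other mesenchymal proteins in culture and in invasive tumours. NRF2, encoded by Nfe2l2, is a transcription factor that KEAP1 and the CUL3 ubiquitin ligase mark for destruction. When it escapes, it pairs with small MAF proteins and switches on genes of glutathione, NADPH and detoxification.

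Signals are raw mean bead intensities, with no background subtracted, and 3 values in a row always belong to replicates 1, 2 and 3 in that order. A gene was read at its brightest probe and was called detected on an array when the deposited detection p-value of that probe was under 0.05. On replicate 1 the dimmest detected probe had a signal of 96.1, on replicate 2 of 83.9 and on replicate 3 of 84.8, while the median undetected probe had 70.2, 64.7 and 63.2. A brightness percentile is the percent of the 30561 genes on the array with a lower signal, averaged over the 3 arrays. Where a gene had several probes they often disagreed: of 5304 such genes detected on all 3 arrays, 2214 had every probe detected. The percentile orders probes, which bind with different strength, and is not a scale of transcript number between genes.

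Of the 30561 genes, 11176 were detected on all 3 arrays, which is 36.6%, and 16701 on none, which is 54.6%. Undetected means not told apart from the negative controls, not absent. A further 2684 genes were detected on 1 or 2 arrays. Without replicate 1 the count was 12100, or 39.6%. These shares are the background for each gene list that follows. They also cover entries known only by an array name, while the lists hold named genes. Among genes with a RefSeq promoter window, 7419 were detected on all 3 arrays and 7031 on none. The detected part was thus larger for such genes than for all genes.

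The 3 arrays did not agree equally well. Across all genes the normalized log2 signals of replicates 2 and 3 correlated at r = 0.997, those of replicates 1 and 2 at 0.964 and those of replicates 1 and 3 at 0.972. Replicates 1 and 2 shared a BeadChip, the slide that carries several arrays, and replicate 3 lay on the other. Why replicate 1 stood apart was not tested. On raw log2 signals replicate 1 correlated with the 9 arrays of treated cells at 0.951 to 0.959, replicate 2 at 0.967 to 0.996 and replicate 3 at 0.968 to 0.995. The median correlation was 0.956 for replicate 1, 0.994 for replicate 2 and 0.993 for replicate 3. The mean raw signal was 439.6 on replicate 1, against 560.5 and 551.6, and 38.1% of its probes were detected, against 41.3% and 40.2%. Among the 11176 genes detected throughout, replicate 1 differed from the mean of the other two arrays by a median of 0.60 on the log2 scale, and 3020 genes, or 27.0%, differed by more than 1. Between replicates 2 and 3 the median difference was 0.14, and 4 genes differed by more than 1. Values are therefore given for each array, and what held without replicate 1 is stated beside them. Since raw signals were lower on replicate 1 as a whole, a gene is called dimmer or brighter there only where its normalized log2 signal differed from the mean of the other arrays by more than 0.5. These words describe the probe that was read, and other probes of the same gene could differ between arrays in another direction.

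**Figure D1:**
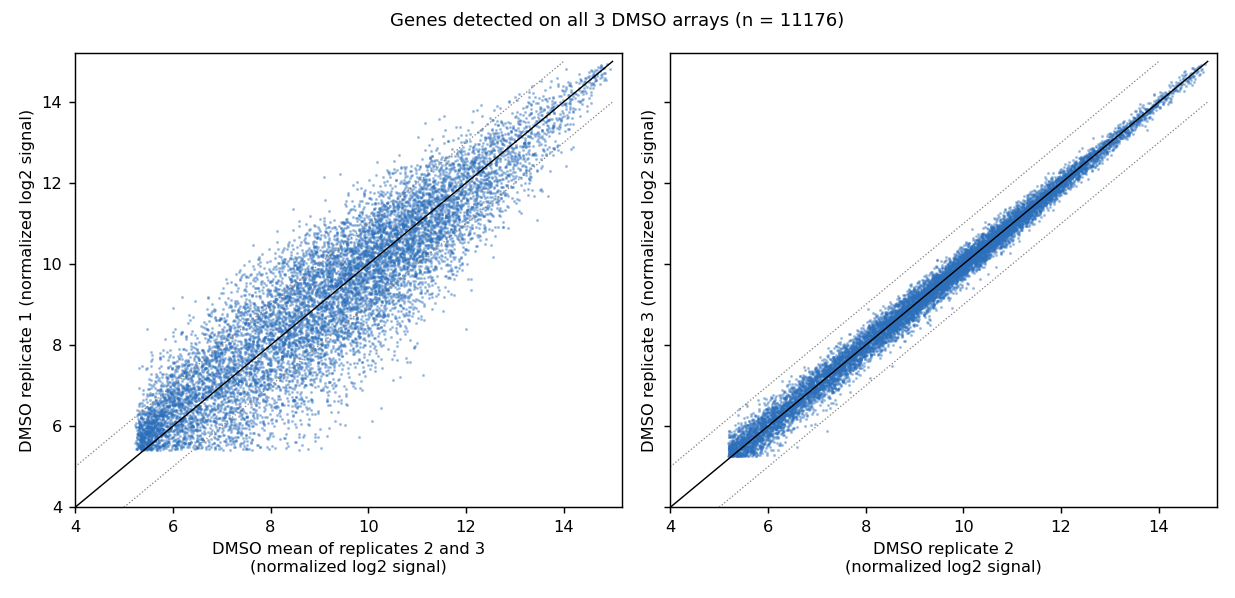
Normalized log2 signal of each of the 11176 genes detected on all 3 DMSO arrays, with replicate 1 against the mean of replicates 2 and 3 on the left and replicate 3 against replicate 2 on the right. Each point is a gene, the solid line marks equality and the dotted lines a log2 difference of 1; 3020 genes lie outside them on the left and 4 on the right.

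Genes of ribosomes, chromatin and mitochondria were numerous at the top of the order. Among the 100 brightest genes were 25 that encode ribosomal proteins, 6 histone genes, 5 genes of the mitochondrial genome and 29 whose symbols begin with Gm or LOC. The 100 brightest genes held 11.8%, 11.3% and 11.5% of the summed signal. Of the 100, 91 were also among the 100 brightest without replicate 1.

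Averaged over the 3 arrays, the highest brightness percentile was that of Gm3839, which the array annotates as similar to glyceraldehyde-3-phosphate dehydrogenase, an enzyme of glycolysis, at 28794, 28824 and 30604. Rplp1, a protein of the large ribosomal subunit, came next at 26220.3, 31444 and 31931, was brighter than Gm3839 on replicates 2 and 3, and stood first without replicate 1. Ybx1, next in the order, encodes an RNA-binding protein of translation and read 26231, 27901 and 29773. The other 12 were the histone H2A genes H2ac20, H2ac24, H2ac10 and H2ac13 and the related H2af-ps2, the ribosomal gene Rps2, the tubulin gene Tuba1b, the cytokine gene Mif, and LOC381799, LOC383981, LOC382230 and LOC623466. Probes of such repeated genes may read more than 1 transcript. Of the 15, 12 were also among the 15 brightest without replicate 1.

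With ribosomal and histone genes, tubulins, actins, translation factors, heat shock and hnRNP genes, Gapdh, Ppia and unnamed genes set aside, the brightest genes had varied roles. Mif, which encodes macrophage migration inhibitory factor, read 26292, 26353 and 28225. Ubb, a ubiquitin gene, read 20320.5, 26719 and 29382. Atp5b, a subunit of the mitochondrial ATP synthase, read 25534.5, 25927 and 26161. All 3 lay above the 99 percentile on each array. Mt1, a metallothionein that binds zinc and other metals, read 19941.5, 25914 and 29383. Fth1, the heavy chain of the iron store ferritin and a known NRF2 target, read 25182, 23590.1 and 27902.5. Pkm, the pyruvate kinase of the last step of glycolysis, read 21953, 26392 and 22919. The raw signals of Mt1 and Pkm were lowest on replicate 1, and that of Fth1 was lowest on replicate 2.

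Prl2c2, or proliferin, a secreted relative of prolactin known from placenta and growing mouse cell lines, read 15806, 24918 and 24065. Annexins, which bind membranes in the presence of calcium, were also there, with Anxa2 at 16114, 24135 and 23662. Anxa3 read 14587, 23929 and 23109. Emp1, an epithelial membrane protein, read 14525, 25462 and 23689.5. These 4 genes had lower raw signals on replicate 1 than on the other arrays, which were close. The rest of the 15 were the mitochondrial genes mtDNA_ND4 and mtDNA_CytB, the galectin gene Lgals1 and the tropomyosin gene Tpm1, and 12 of the 15 were again in the list without replicate 1.

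Of 301 genes in 22 lists on cell identity, 122, or 40.5%, were detected on all 3 arrays. The share of all genes was 36.6%, unnamed ones included, and it was larger among genes with a RefSeq promoter window. The lists themselves lay far apart, from 14.3% of fibroblast and of erythroid markers to 100% of simple keratins.

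**Figure D2:**
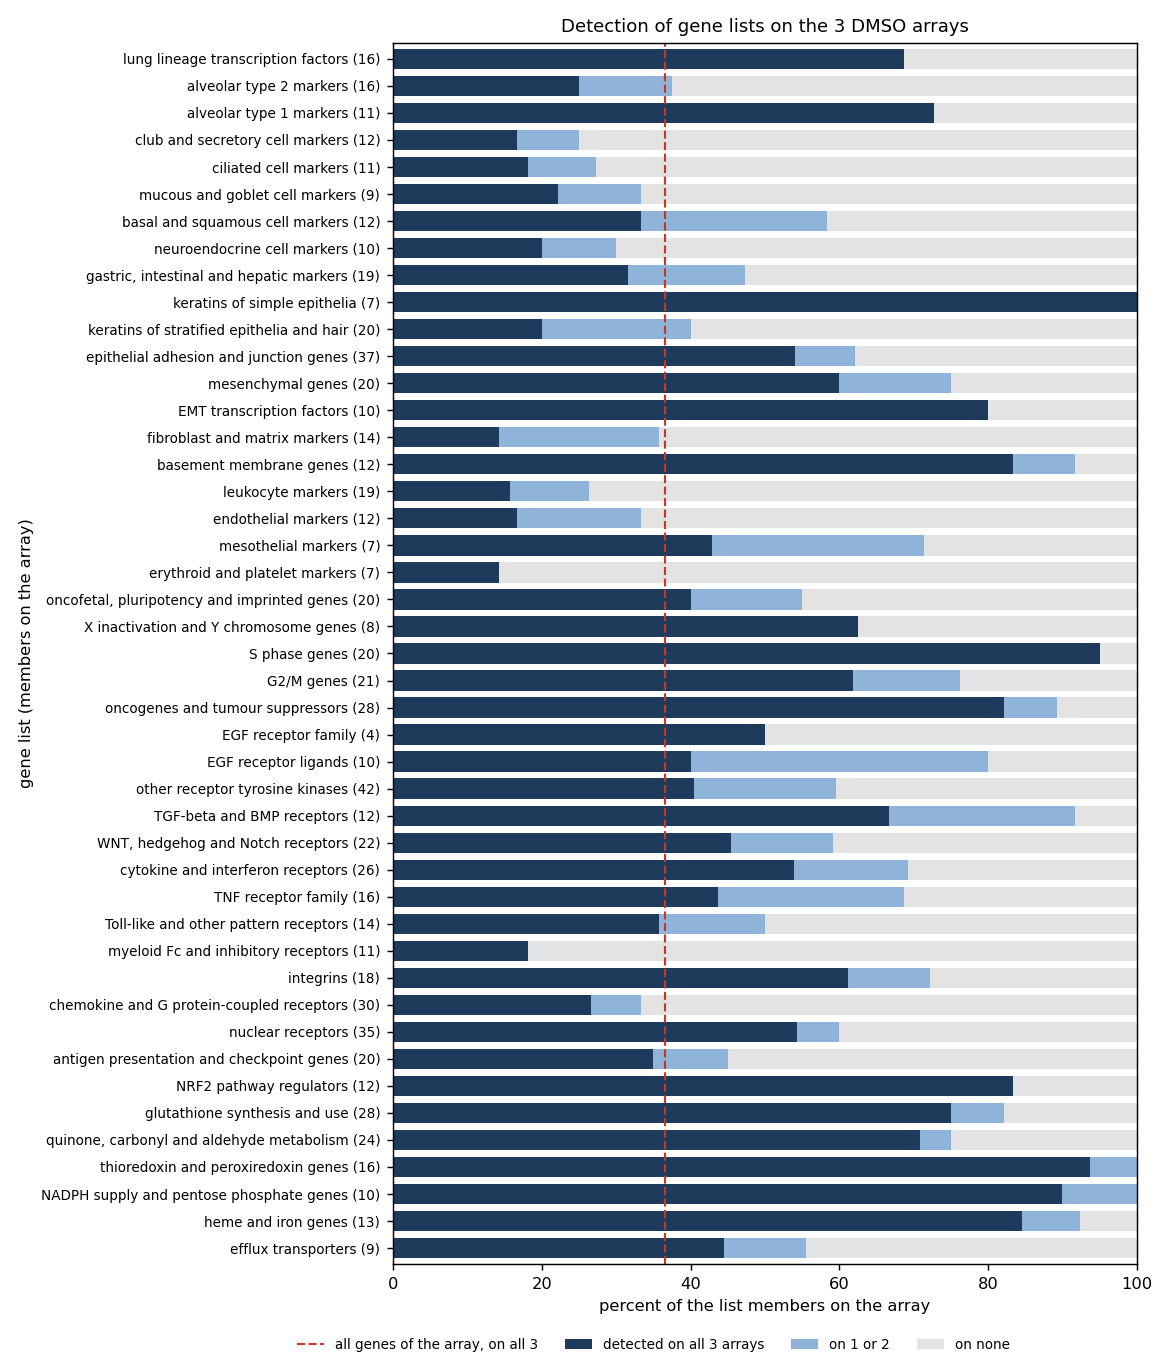
Percent of the members of each of 45 gene lists that were detected on all 3 DMSO arrays, on 1 or 2, or on none, with the number of members on the array in brackets. The dashed line marks the 36.6% of all genes detected on all 3 arrays; simple keratins stand at 100% and the fibroblast and erythroid lists at 14.3%.

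The transcription factors that set up lung epithelium were mostly detected. Of 16 on the array, 11 were detected on all 3 arrays and 5 on none, the same with and without replicate 1. Where every probe of a gene had to be detected, the count fell from 11 to 4. Nkx2-1, the master regulator of lung epithelium and a diagnostic marker of lung adenocarcinoma, read 198.5, 1310.2 and 984.5. It was detected throughout but was far dimmer on replicate 1, and only 1 of its 2 probes was detected on all arrays. Foxa1, a pioneer factor of endoderm, read 1791, 2604 and 2425. Klf5, a factor of epithelial growth, read 5041, 3229 and 3739.8. Gata6, which works with NKX2-1 in the developing lung, read 390.2, 1801 and 1430.3. All 3 were well above background. Foxp1, a forkhead factor of airway and alveolus, read 2108, 969 and 1042. Gata6 was dimmer on replicate 1 and Klf5 brighter, so these factors did not move together. Foxp2, Hopx, Elf5 and Cebpa were detected on none, and Cebpa, a factor of type 2 cell maturation, read 77.1, 77.9 and 69.5.

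Type 2 markers were mostly at background, the surfactant genes Sftpc, Sftpa1 and Sftpd among them. Only 4 of 16 were detected on all 3 arrays, or 25.0%, and 6 without replicate 1. Abca3, the lipid pump of the lamellar bodies that store surfactant, read 1431, 3347 and 3266 and all 3 of its probes were detected. Etv5, a factor that maintains type 2 cells, read 270.1, 501.5 and 558. The mucin gene Muc1 read 199, 140.0 and 173. At these probes Abca3 and Etv5 were dimmer on replicate 1 and Muc1 was brighter. Another Abca3 probe had its highest raw signal there, at 2761.7, 1995.1 and 2111.2. Another Muc1 probe had its lowest there, at 95.9, 141.8 and 136.6.

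Sftpb, which encodes surfactant protein B, read 243, 127 and 141, above background on all arrays and brightest on replicate 1. Sftpc, the most specific type 2 marker, read 57.5, 64.3 and 57.9. Sftpa1, surfactant protein A, read 75.0, 82.0 and 63.8, neither being detected on any array. Sftpd, another surfactant protein gene, read 64.2, 60.4 and 58.5. Napsa, an aspartic protease gene used to diagnose lung adenocarcinoma, read 81.7, 70.6 and 81.9, and both were undetected. Against the label of lung adenocarcinoma, Nkx2-1 and Abca3 were detected, while Sftpc, Sftpa1 and Napsa were not.

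Type 1 markers were detected more often, 8 of 11 on all 3 arrays, or 72.7%, with or without replicate 1. Aqp5, the water channel of the type 1 cell surface, which also occurs in glands and airways, read 10620.0, 11147 and 13041 and lay at the 99.3 percentile. Cav1, the scaffold of caveolae, read 3527, 13739.7 and 11767. The epithelial membrane gene Emp2 read 1201, 2852 and 2666. Pdpn, or podoplanin, read 852, 2236 and 2047. Aqp5 differed little between arrays, and the other three were dimmer on replicate 1.

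Ager, the receptor for advanced glycation end products and the most specific type 1 marker, read 137, 114 and 104. That is detected, though close to the dimmest detected probes, and only 1 of its 2 probes was detected throughout. Hopx, Clic5 and Igfbp2 were detected on no array.

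**Figure D3:**
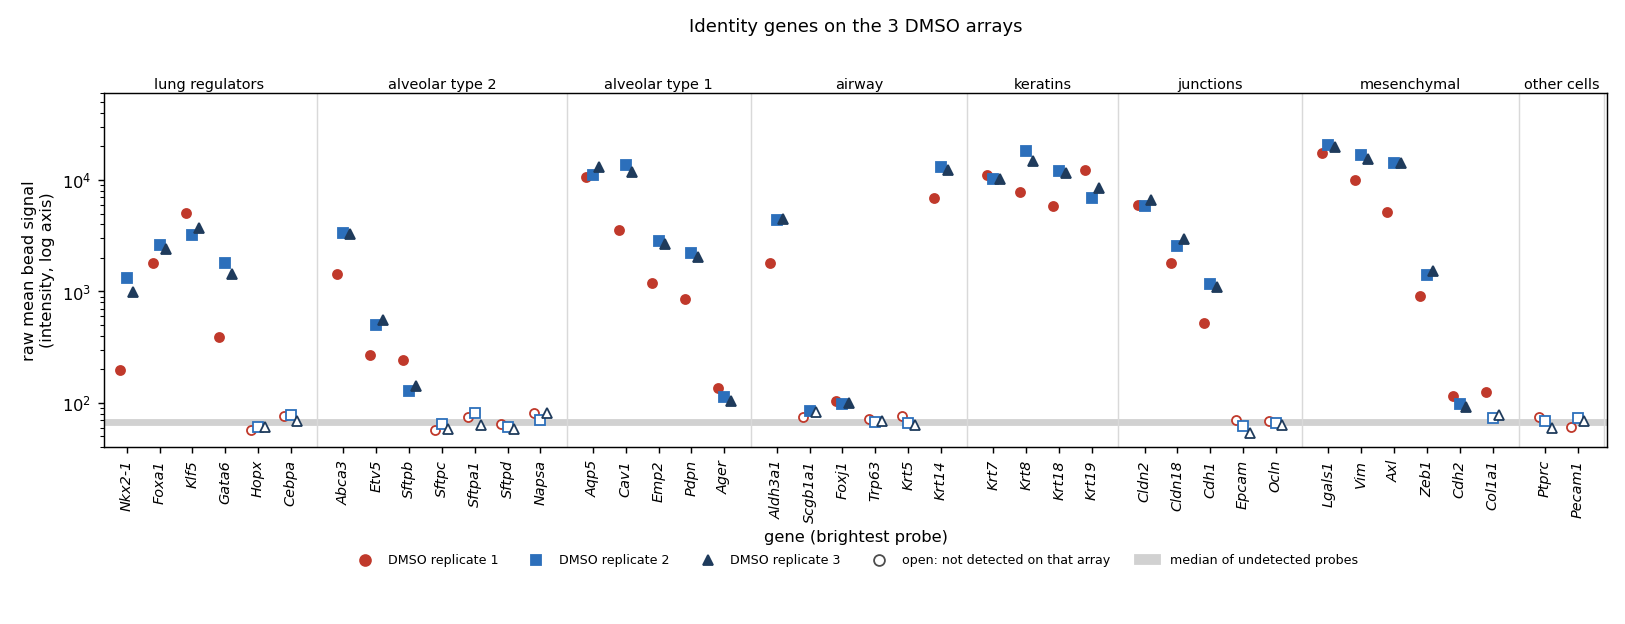
Raw mean bead signal (log axis) of identity genes on DMSO replicates 1, 2 and 3, with open symbols where the gene was not detected and a grey band at the median of undetected probes. Nkx2-1, Abca3, Aqp5, the simple keratins, Cdh1 and Vim lie above the band on all arrays, and Sftpc, Sftpa1, Trp63, Krt5, Epcam and Ptprc lie at it.

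Airway markers were few. Of 12 club and secretory markers 2 were detected on all arrays, of 11 ciliated markers 2, and of 9 goblet markers 2, which are 16.7%, 18.2% and 22.2%. Aldh3a1, an aldehyde dehydrogenase that is also an NRF2 pathway gene, read 1807, 4388 and 4495.5. Scgb1a1, the secretoglobin that defines club cells, read 75.4, 83.9 and 82.2 and was detected on replicate 2 alone. Cyp2f2, Cbr2, Scgb3a1 and Scgb3a2 were detected on none. Tubb4b, a tubulin of cilia and of dividing cells, read 8270.0, 12289.7 and 12443. Foxj1, the factor that commands motile cilia, read 104, 96.9 and 100, just above the detection floor on each array, and Tekt1, Dnah5, Ccdc39 and Rfx3 were undetected. Gcnt3, a mucin-type glycosyltransferase, read 3908, 4694.5 and 4643. Clca1, a goblet cell secretion, read 114, 98.8 and 106, and the mucin gene Muc5ac was detected on none.

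Basal cell markers split. Krt14, the keratin of basal layers, read 6864, 12979 and 12415, at the 99.2 percentile. Its partner Krt5 read 76.6, 65.5 and 63.9. The basal regulator Trp63 read 71.5, 67.8 and 69.3, neither being detected on any array. Of 12 basal and squamous markers 4 were detected on all 3 arrays, or 33.3%, the same number without replicate 1. The other three, Krt13, Ivl and Sprr1a, were dim, with Krt13 at 245, 147 and 164.

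Markers of other endoderm were measured beside the lung genes. Of 19 gastric, intestinal and hepatic markers 6 were detected on all arrays and 8 without replicate 1. Cdx2, the homeobox factor of intestine, read 2147, 4680.4 and 4269.5. Onecut2, a factor of liver and pancreas, read 5972, 2946 and 3575. Lgals4, an intestinal galectin, read 2026, 2243 and 2526. Hnf4a, a nuclear receptor of liver and gut, read 913.5, 659 and 749. All 4 were well above background on each array, Cdx2 dimmest and Onecut2 brightest on replicate 1. Cdx1, Tff3 and Gkn2 were undetected. Of 10 neuroendocrine markers 2 were detected on all arrays, Ncam1 at 249.7, 263 and 286.5. Calca, the calcitonin gene, read 156, 148.5 and 169.8. Chga, the chromogranin of secretory granules, was detected on none.

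Keratins differed widely in brightness. All 7 keratins of simple, single-layered epithelia were detected on every array, and without replicate 1. Krt8 read 7802, 18152 and 14681. Krt18, with which it polymerises, read 5855, 12050.0 and 11514.5, and both were dimmer on replicate 1. Krt7, typical of glandular and lung epithelium, read 11168, 10223 and 10278.5. Krt19, its frequent companion, read 12399.6, 6937 and 8518. The raw signal of Krt7 hardly varied, which after normalization made it brighter on replicate 1 by 0.54. Krt19 was brighter there by 1.11, against the order of Krt8 and Krt18. Among all 50 keratin symbols on the array, 13 were detected on all 3 arrays, or 26.0%, and 5 were at or above the 90 percentile, namely these 4 and Krt14. Krt20, of intestinal epithelium, read 385, 349 and 372. Krt23 and Krt80, the other simple keratins, lay at the 71.4 and 63.3 percentiles, with Krt80 near the floor. Of 20 keratins of stratified epithelia and hair, 4 were detected throughout, Krt14 and 3 others. Krt79 read 1023, 726 and 781. Krt10, a keratin of the upper epidermis, read 412, 823 and 768.

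Junction genes were detected in part. Of 37, 20 were detected on all arrays, or 54.1%, and 14 on none. Cldn2, a claudin that makes leaky tight junctions, read 5944, 5814 and 6626. Cldn6, a claudin of embryonic epithelium, read 5633, 4845 and 5611. Cldn18, the claudin of lung and stomach, read 1809, 2537 and 2934. The desmosome gene Pkp2 read 2397, 2328 and 2415. At these probes the raw signals of Cldn2 and Pkp2 hardly varied between arrays, and Cldn6 was brighter on replicate 1 after normalization. A second Pkp2 probe read 503.8, 1862.8 and 1492.7, and a second Cldn2 probe 4645.9, 6404.6 and 6361.7.

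Cdh1, which encodes E-cadherin, read 523, 1164 and 1098.5. It was detected on each array and dimmer on replicate 1, with 1 of its 2 probes detected throughout. Epcam, a surface protein of nearly all simple epithelia, read 70.0, 62.1 and 53.3 and was detected on none. The tight junction gene Ocln was undetected too, at 68.6, 66.7 and 63.7, as were Marveld2 and Marveld3, which belong to its family.

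Mesenchymal genes were detected beside the keratins. Of 20, 12 were detected on all arrays, or 60.0%, with or without replicate 1, and 7 were at or above the 90 percentile. Where every probe of a gene had to be detected, the count fell from 12 to 4. Vim, the mesenchymal intermediate filament vimentin, read 9992, 16703 and 15315 and lay at the 99.5 percentile. Lgals1, a galectin of stroma and motile cells, read 17419, 20665 and 19936. Axl, a receptor kinase of invasive cells, read 5190.1, 14202 and 14322.5. Spp1, the matrix cytokine osteopontin, read 3266, 8960.4 and 9119. Axl and Spp1 were dimmer on replicate 1, and Vim and Lgals1 were not.

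Cdh2, or N-cadherin, which often replaces E-cadherin in mesenchymal cells, read 115, 97.5 and 91.7, little above the floor, with 1 of 2 probes detected. Postn, Loxl2, Tnc and Thy1 were detected on none. Of 10 transcription factors that drive epithelial to mesenchymal transition, 8 were detected on all arrays, or 80.0%. Where every probe of a gene had to be detected, the count was 4. Zeb1, a repressor of Cdh1, read 907, 1408 and 1515. Tcf4, a basic helix-loop-helix factor, read 557, 1363 and 1207. Twist2, a factor of mesoderm, read 485, 441 and 422. Snai3, of the Snail family, read 339, 496 and 436. None of these 8 was at or above the 90 percentile, and Twist1 and Foxc2 were undetected.

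Genes of the basement membrane, the sheet under an epithelium, were among the most often detected, 10 of 12 on all arrays and 8 at or above the 90 percentile. Col4a1, a chain of collagen IV, read 5930.4, 5690.2 and 5749. Col4a2, its partner chain, read 4315, 3404 and 4069. The laminin gene Lamb3 read 4373, 6248 and 6207. Agrn, the proteoglycan agrin, read 1960.3, 5229 and 4704. Agrn was dimmer on replicate 1, and Col4a2 was brighter there after normalization.

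Markers of stromal and blood cells were mostly at background. Of 14 fibroblast markers 2 were detected on all arrays, Col6a1 at 577, 890.1 and 901.5. Col5a1, a minor fibrillar collagen chain, read 282, 542 and 529. Col1a1, the main collagen of fibroblasts, read 126, 73.2 and 78.6 and was detected on replicate 1 alone, and Col3a1, Dcn, Lum and Pdgfra on none. The summed signal of the 14 probes was 1808, 2256 and 2232. Of 12 endothelial markers 2 were detected throughout, Egfl7 at 372, 504 and 498. Kdr, a VEGF receptor, read 122, 101 and 88.5, near the floor. Pecam1, the defining endothelial marker, read 61.1, 73.1 and 68.4 and, like Cdh5 and Tie1, was detected on none. The summed signal of the 12 was 1254, 1295 and 1294.

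Of 19 leukocyte markers 3 were detected on all arrays, with a summed signal over the 19 of 3523, 3122 and 3196. Ptprc, which encodes CD45 and marks all leukocytes, read 74.7, 68.5 and 59.4 and was detected on none. Cd14, a co-receptor for bacterial lipopolysaccharide, made up much of that sum, at 1986, 1459.9 and 1631.5. S100a8, a calcium-binding protein of neutrophils and of stressed epithelium, read 125, 417 and 361. Cd68, a lysosomal glycoprotein of macrophages, read 217.5, 138 and 133. Of 7 mesothelial markers 3 were detected, namely Krt19, the weak Upk3b and Msln, or mesothelin, which is also made by adenocarcinomas, at 2180.5, 1657 and 2287. Of 7 erythroid and platelet markers only Epor was detected throughout, at 119.9, 105 and 98.1.

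Growth genes were mostly detected. Of 69 genes in 3 lists, 55 were detected on all arrays, or 79.7%, against 36.6% of all genes, and 59 without replicate 1. For S phase the count was 19 of 20. Mcm5, a subunit of the replication helicase, read 5749, 8936 and 8649. Mcm4, another subunit, read 2661.5, 9866 and 8579. The thymidine kinase gene Tk1 read 6197, 7024 and 7411. Uhrf1, which maintains DNA methylation, read 3338, 7741 and 6501. Mcm4 and Uhrf1 were dimmer on replicate 1, and Mcm5 and Tk1 were not. Of 21 genes of G2 and mitosis 13 were detected on all arrays and 16 without replicate 1. Cdc20, an activator of the anaphase ligase, read 5605, 6547 and 6529. The survivin gene Birc5 read 6141, 5546 and 5405. Cdk1, the kinase of mitotic entry, read 5325, 5465 and 5980.3. Top2a, a topoisomerase, read 4791, 5774 and 5771. The raw signals of these 4 were close on the 3 arrays, and Birc5 was brighter on replicate 1 after normalization. Ccnb2, Bub1, Cenpe and Kif20a were among the 5 undetected, beside 13 genes of the same list that were detected throughout, so an undetected probe does not show that a transcript was absent.

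Of 28 oncogenes and tumour suppressors 23 were detected on all arrays. Ccnd1, the cyclin that carries growth signals into the cell cycle, read 9931.5, 18763 and 18073. Dusp6, a phosphatase induced by ERK signalling, read 4191, 8066 and 7307. Smad3, a transducer of TGF-beta, read 3484, 5037 and 4779.9. None of these 3 differed on replicate 1 by more than 0.5 once normalized.

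Cdkn2a, which encodes the inhibitors p16 and ARF and is often deleted in mouse lung tumour lines, read 105, 83.6 and 73.5 and was detected on replicate 1 alone. Its neighbour Cdkn2b, which encodes p15, read 72.2, 61.3 and 63.0 and was detected on none, like Mycn and Spry2. Myc, a driver of growth, read 1338, 281 and 371. It was detected on every array and was among the 8 genes most raised on replicate 1, by 2.70 on the log2 scale over the mean of the other two.

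Of 260 genes in the receptor lists, 114, or 43.8%, were detected on all arrays, against 36.6% of all genes, unnamed ones included. These lists also hold ligands, adaptors and antigen presentation and checkpoint genes. Without replicate 1 the count was 123. In the EGF receptor family, Erbb2 read 1291, 693 and 783. Egfr, the receptor that gives the family its name, read 219.6, 247 and 235, with 2 of its 4 probes detected throughout. Erbb2 was brightest on replicate 1 and Egfr was even. Erbb3 and Erbb4, the other members, were detected on none, Erbb3 at 68.4, 67.7 and 64.6. Some ligands of the family were bright. Areg, or amphiregulin, read 1428, 7175 and 5885. Hbegf, heparin-binding EGF, read 2481, 2234 and 2382.5. Btc, or betacellulin, read 886, 3095 and 2733. Areg and Btc were dimmer on replicate 1, and Hbegf was brighter there after normalization. Of 10 ligands 4 were detected on all arrays and 5 without replicate 1, and Ereg and Nrg4 were undetected.

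Of 42 other receptor tyrosine kinases 17 were detected on all arrays, or 40.5%. After Axl came Ryk, a receptor for WNT, at 6661, 5593 and 6074. The ephrin receptor Epha2 read 3875, 1702 and 2329. The VEGF receptor Flt1 read 1061, 3023 and 2519. Met, the receptor of hepatocyte growth factor, read 205, 130.1 and 125, detected throughout and brightest on replicate 1. Insr, Fgfr2, Fgfr3 and Fgfr4 were detected on none.

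Receptors for TGF-beta and BMP were detected for 8 of 12, or 66.7%, and for 10 without replicate 1. Both chains of the TGF-beta receptor were there, Tgfbr2 at 3131, 4477 and 4414. Tgfbr1 read 742, 2754.5 and 2325. Of 22 receptors of the WNT, hedgehog and Notch pathways 10 were detected, with the frizzled genes Fzd7 at 1399.6, 2088 and 2082. Fzd5 read 2009, 1579 and 1651. The hedgehog transducer Smo read 838, 1453 and 1467. Tgfbr1 was much dimmer on replicate 1, and Fzd5 was brightest there.

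Of 26 cytokine and interferon receptors 14 were detected on all arrays, or 53.8%, none of them at or above the 90 percentile. Il17rc, a chain of the interleukin 17 receptor, read 971.5, 769 and 870.5. Il11ra1, the receptor chain for interleukin 11, read 387, 727 and 664.5. Ifngr1, a chain of the interferon gamma receptor, read 440.1, 619.9 and 557. Ifngr2, the other chain, read 899.5, 289.8 and 386 and was far brighter on replicate 1 at this probe. Other Ifngr2 probes, detected on all arrays, had lower raw signals there, 1 at 167.7, 254.5 and 273.1. Il6st and Ifnar1 were undetected. In the TNF receptor family, 7 of 16 were detected on all arrays, and Tnfrsf12a, the receptor for TWEAK, read 7457, 7326.5 and 7745 with hardly any spread.

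Of 14 pattern receptors and adaptors 5 were detected on all arrays. Myd88, the adaptor of Toll-like receptors, read 1416, 3354 and 2697. Tlr4, which senses lipopolysaccharide with CD14, read 536, 789 and 791. Of 11 myeloid Fc and inhibitory receptors 2 were detected, Gp49a at 215, 166 and 163. Fcgr3, a low-affinity receptor for IgG, read 154, 164 and 186. Fcer1g, the signalling chain that FcγRIII needs at the surface of mouse cells, was detected on none, and so were Fcgr1, Fcgr2b and Fcgr4.

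Integrins, which bind the matrix, were detected for 11 of 18, or 61.1%. Itgb4, the laminin receptor chain of hemidesmosomes, read 9076, 8583 and 8057. Itga3, another laminin receptor chain, read 4508, 7482 and 6394.5. Of 30 chemokine and other G protein-coupled receptors 8 were detected, or 26.7%, below the share of all genes. F2r, the thrombin receptor, was the brightest of them at 8845, 21387.5 and 18393. Gprc5a, a retinoic acid-induced gene whose loss leads to lung adenocarcinoma in mice, read 5997, 4845 and 5330.0. Cxcr4, Ackr3, Cxcr2 and Ccr1 were detected on none.

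**Figure D4:**
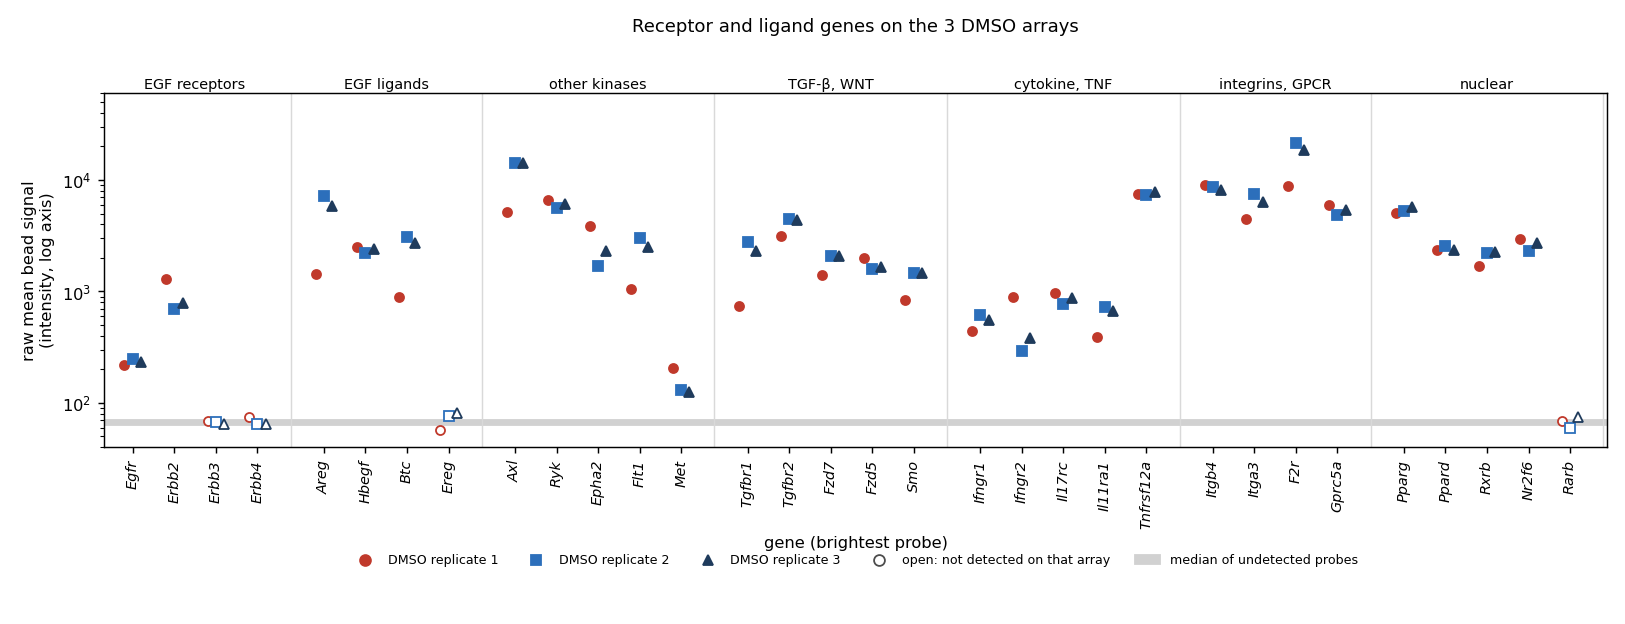
Raw mean bead signal (log axis) of receptor and ligand genes on DMSO replicates 1, 2 and 3, with open symbols where the gene was not detected and a grey band at the median of undetected probes. Axl, F2r, Itgb4 and Tnfrsf12a are far above the band, and Erbb3, Erbb4 and Rarb lie at it.

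Of 35 nuclear receptors 19 were detected on all arrays, or 54.3%. Pparg, a regulator of lipid storage and a drug target, read 5091, 5262 and 5689, with close raw signals. Ppard, a relative of Pparg, read 2353, 2549.9 and 2365. Nr2f6, an orphan receptor, read 2967, 2309.6 and 2723. Rxrb, a partner of both PPARs, read 1684, 2227 and 2236. Rarb, Rxrg, Pgr and Nr3c2 were detected on none. Of 20 antigen presentation and checkpoint genes 7 were detected on all arrays. H2-D1, a class I gene, read 3755, 7072 and 6269.7. B2m, the light chain of class I molecules, read 3376, 5446 and 5409. Cd276, a checkpoint ligand, read 2665, 2749 and 2815. Cd47, the signal against phagocytosis, read 1255, 2175 and 2112. Tap1, Psmb8, Psmb9 and Nlrc5, which serve class I presentation, were undetected.

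NRF2 pathway genes were detected about as often as growth genes. Of 112 genes in 7 lists, 87 were detected on all 3 arrays, or 77.7%, and 91 without replicate 1. Their median brightness percentile was 85.3, and 86.3 without replicate 1, and 47 of the 112 were at or above the 90 percentile. The medians of the lists ran from 52.9 for efflux transporters to 92.1 for thioredoxin and peroxiredoxin genes. Many of these genes are known to be active in most cells, and what NRF2 contributes to their level was not tested.

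Among the regulators 10 of 12 were detected on all arrays. Nfe2l2 read 662, 930.2 and 881, no different on replicate 1 once normalized, and 1 of its 2 probes was detected throughout. Keap1, its inhibitor, read 2905, 2123 and 2242, with all 4 probes detected. This probe was brighter on replicate 1, but the raw signals of the other Keap1 probes were lower there, 1 at 594.5, 1335 and 1289. Cul3 read 4455, 7714 and 6789.6. Rbx1, the RING subunit of the ligase, read 2867, 9538 and 8169.8. Sqstm1, or p62, which can sequester KEAP1, read 3028, 7284 and 7268. The related factor Nfe2l1 read 2388, 3247 and 3299. Rbx1 and Sqstm1 were dimmer on replicate 1, and Cul3 and Nfe2l1 were not. Mafk, a small MAF partner, and Bach2, a competitor for the same sites, were detected on none.

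In glutathione metabolism 21 of 28 genes were detected on all arrays, or 75.0%. Mgst3, a membrane glutathione transferase and the brightest of them, read 14654, 12069.8 and 13313. Gpx1, a glutathione peroxidase, read 8105, 11940.1 and 12075. Gpx4, which reduces lipid peroxides, read 9686, 10404.5 and 10187.5. The transferase Gstp1 read 7169, 8342 and 9173. All 4 lay above the 98 percentile. Gclm and Gclc encode the subunits of the enzyme that starts glutathione synthesis. Gclm read 1516, 2959 and 2855.5. Gclc read 179, 152 and 193, both detected throughout. Slc7a11, the cystine importer that supplies the pathway, read 489.8, 890.1 and 832. Gclm was dimmer on replicate 1, and Gclc and Slc7a11 were not. Ggt1, Gpx3, Gsta3 and Gstm3 were undetected.

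In quinone, carbonyl and aldehyde metabolism 17 of 24 genes were detected on all arrays, or 70.8%. Akr1b8, an aldo-keto reductase, read 3089, 5187 and 5068. Akr7a5 read 3109.7, 3469 and 3097. The quinone reductase Nqo2 read 3101, 3371 and 3428. Nqo1, the quinone reductase most often used as a readout of NRF2, read 102.5, 91.9 and 87.3. These values are just above the dimmest detected probes of the arrays, and 1 of the 2 Nqo1 probes was detected throughout. Akr1b7, Akr1c13, Akr1c14 and Aldh7a1 were detected on none.

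Thioredoxin and peroxiredoxin genes were detected on all arrays for 15 of 16, and all 16 without replicate 1. Prdx1, which reduces peroxides, read 9351, 13546 and 13445.5. Prdx2, its relative, read 9799, 11439 and 11951. Sod1, a superoxide dismutase, read 3125.5, 9454 and 9129, dimmer on replicate 1, as Prdx1 and Prdx2 were not. Srxn1, or sulfiredoxin, which repairs peroxiredoxins and is a classical NRF2 target, read 2528, 2329.7 and 2600.0, with close raw signals and all 3 probes detected. Txnrd1, the thioredoxin reductase, read 95.5, 229.6 and 246 and was the 1 gene of the list not detected on replicate 1.

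Of 10 genes of NADPH supply 9 were detected on all arrays, and all 10 without replicate 1. Pgd of the pentose phosphate pathway read 7147, 9898.5 and 9025. Taldo1, its transaldolase, read 5862, 5958 and 6647. Tkt, its transketolase, read 2665, 3768 and 3589.9. G6pdx, its first enzyme, read 1616, 1298.5 and 1604. G6pdx was brighter on replicate 1, but the list as a whole was dimmer on replicate 1, by a median of -0.64 on the log2 scale, against a median of -0.001 for all 13860 genes detected on any array.

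Of 13 heme and iron genes 11 were detected on all arrays. After Fth1 came Ftl1, the light chain of ferritin, at 9737, 12953 and 12942.5. Tfrc, the transferrin receptor, read 4999, 5946 and 6336. Hmox1, the heme oxygenase that oxidants and NRF2 induce, read 193, 106 and 114, near the floor on replicates 2 and 3 and brightest on replicate 1. Of 9 efflux transporters 4 were detected on all arrays, or 44.4%, and 4 on none. Abcc4, a pump for nucleotides and conjugates, read 2695, 3316 and 3707. Abcc3, a pump for glucuronides and a known NRF2 target, read 879, 1353 and 1377. Abcb1b, one of the mouse P-glycoproteins, read 677.5, 1232 and 1186. Abcc5 read 178.5, 428 and 376. Abcc5 was dimmer on replicate 1, and Abcc3, Abcb1b and Abcc4 were not. Abcc1, Abcc2, Abcg2 and Abcb1a were the undetected ones.

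**Figure D5:**
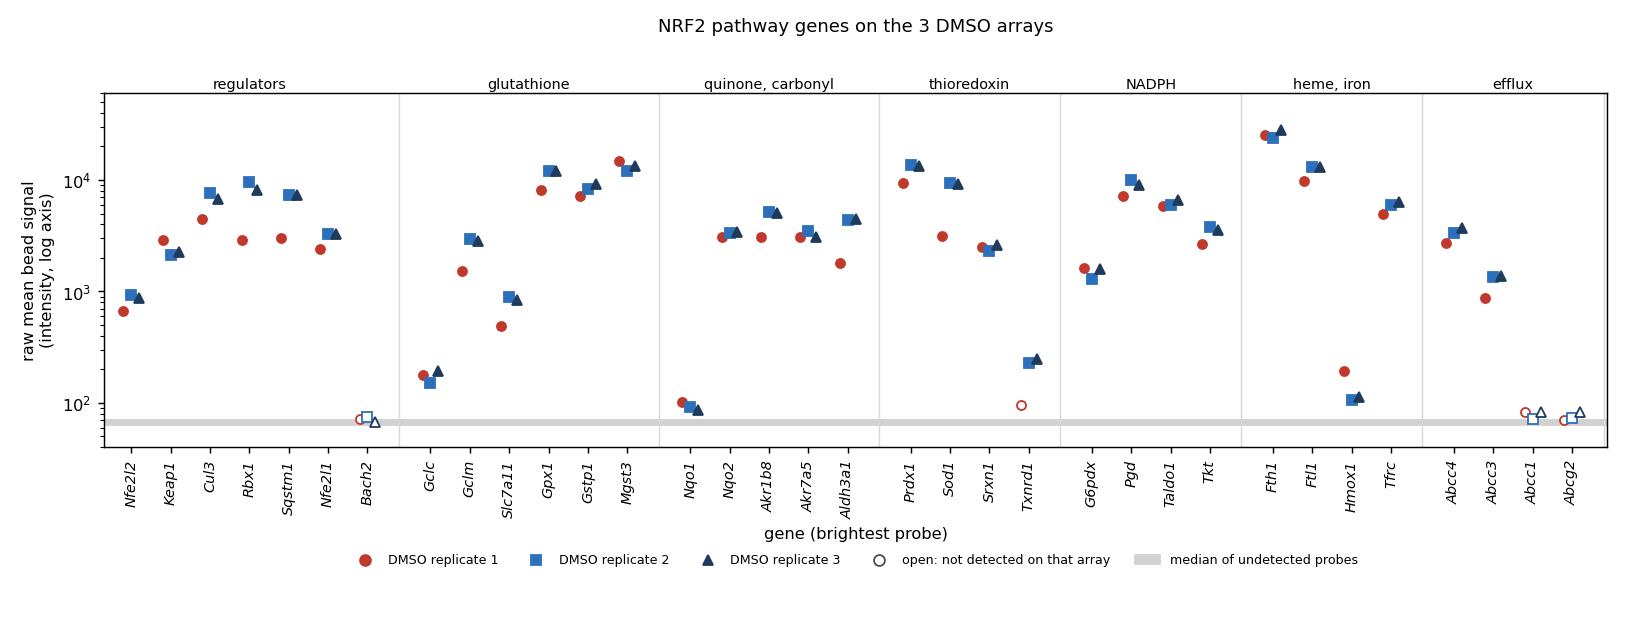
Raw mean bead signal (log axis) of NRF2 pathway genes on DMSO replicates 1, 2 and 3, with open symbols where the gene was not detected and a grey band at the median of undetected probes. Fth1, Mgst3 and Prdx1 are far above the band, Nqo1 and Hmox1 are near it, and Txnrd1 is open on replicate 1.

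NRF2 binds the antioxidant response element, whose core TGACNNNGC was looked for on both strands, as GCNNNGTCA on the other, in RefSeq promoter windows of the mouse GRCm38.p6 assembly. The windows run from 250 bases before to 50 bases after each start site and come from the C57BL/6J reference, not from the A/J strain of the cells. Of the 97 NRF2 pathway genes with a window, 22, or 22.7%, held a match, as did 14% of all 27025 genes with a window and 16.9% of those detected on all 3 arrays. Stretches from before the start site follow for genes described above, detected and undetected alike, to show how the same core sits in both. Each reads 5′ to 3′ on the strand of the gene, with the core in capitals.
Gclm: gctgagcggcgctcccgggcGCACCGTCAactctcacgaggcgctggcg
G6pdx: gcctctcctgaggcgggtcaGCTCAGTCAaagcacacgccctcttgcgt
Prdx1: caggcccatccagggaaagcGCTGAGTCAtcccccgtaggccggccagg
Sod1: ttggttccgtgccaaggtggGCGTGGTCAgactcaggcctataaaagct
Nfe2l2: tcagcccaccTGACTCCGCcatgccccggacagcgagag
Txnrd1: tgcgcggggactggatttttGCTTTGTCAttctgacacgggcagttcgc
Gsta3: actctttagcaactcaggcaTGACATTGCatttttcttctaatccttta
Abcc2: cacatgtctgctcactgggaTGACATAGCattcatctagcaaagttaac

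On GRCm38.p6 the stretches lie at chr3:122245403-122245451 (Gclm, plus strand), chrX:74428909-74428957 (G6pdx, minus strand), chr4:116685446-116685494 (Prdx1, plus strand), chr16:90220686-90220734 (Sod1, plus strand). The others lie at chr2:75704875-75704913 (Nfe2l2, minus strand), chr10:82859094-82859142 (Txnrd1, plus strand), chr1:21240444-21240492 (Gsta3, plus strand), chr19:43782190-43782238 (Abcc2, plus strand). The first base of the core lay between -240 (Nfe2l2) and -56 (Sod1) from the start site. The Prdx1 core also holds the letters TGAGTCA, those of an AP-1 site, and the other cores shown do not. Gclm, G6pdx, Prdx1, Sod1 and Nfe2l2 were detected on all 3 arrays, Txnrd1 on 2, and Gsta3 and Abcc2 on none. Nqo1, Hmox1 and Gclc held no match in these windows. A match is a run of letters and not a measured site, and its absence says nothing of sites farther away.

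Among the 16 genes that differed most on replicate 1, Myc was the 1 member of the lists. Tmem131, a membrane protein gene, read 3185, 488 and 681, which is 3.06 above the mean of the other arrays on the normalized log2 scale. Sf3a2, a splicing factor, read 479, 112 and 134.5, which is 2.99 above. Cabin1, scl0002182.1_22, Tysnd1, Ubald2 and Pdcd6ip followed, at 2.79 to 2.92 above. In the other direction, Ddx21, an RNA helicase of ribosome production, read 176, 2436 and 1897. Dazap2 read 307, 4321 and 3529.8. AW123240, Sh3bgrl, Setd7, Fam91a1 and Nat2 were likewise lower, and over the 8 genes lowest on replicate 1 the difference ran from -4.07 to -3.61. Replicates 2 and 3 differed by less than 1 on the log2 scale for each of the 16 genes.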

How the data were processed

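Total RNA of VC1 cells was measured on Illumina MouseWG-6 bead arrays. The authors read the arrays with GenomeStudio's gene expression module, version 1.9.0, per the file headers, without normalization or background subtraction. The deposited intensity is the mean of a probe's beads on an array, and the deposited detection p-value sets it against negative control probes. The other deposited values used were the standard error of the bead intensities and the bead number. The authors also deposited a table of intensity values normalized between arrays, which was an alternative only. How they were normalized is not given in the sources used here.

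Each gene of 45281 probes was read at the probe with the highest mean normalized log2 signal over the 3 arrays. Symbols were brought up to date by Entrez number for 29586 probes and by accession for 2759, and 12936 probes kept the array's name. For log2 values, intensities of all 12 arrays were background-corrected with normexp and quantile-normalized in limma 3.58.1 under R 4.3.3. Counts and percentiles were computed in Python 3.11.15 with pandas 2.3.3 and numpy 2.4.6, and the steps were checked on simulated data.

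Members and gene lists were chosen with earlier results of these data known. The text names the 15 brightest genes, the 15 brightest after setting aside machinery and unnamed genes, up to 4 brightest detected and 4 undetected genes of each list, 39 genes always, and the 8 genes furthest up and down on replicate 1, except that some are not reported here. Genes shown beyond these were chosen after their values were seen. Of 737 list genes 726 were on the array. No groups were compared and no test was run. Alternatives were the probe rule, the detection threshold, the background correction, the normalization, the authors' table and leaving out each array. The number of arrays limits the precision.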

Additional observations from a re-analysis of the deposited data

How the results depend on the processing

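No paired analysis was possible because no groups were compared. The count of genes detected on all 3 arrays, 11176, was 9728 at a detection p under 0.01, 12550 when detection on 2 of the 3 arrays sufficed, 8086 when every probe of a gene had to be detected, and 11370 to 12100 when 1 array was left out, the last without replicate 1. Requiring every probe lowered the detected identity genes from 122 to 71 and the detected genes of the receptor lists, ligands and others included, from 114 to 71. With the mean of all probes in place of the brightest, the median percentile was 52.0 for identity (main value 55.6), 87.5 for growth (91.0) and 54.8 for receptors (57.7). Leaving out 1 array gave medians of 55.1 to 55.8 for identity, 89.4 to 90.9 for growth, 57.8 to 59.1 for receptors and 85.1 to 86.3 for the NRF2 pathway. On the 11176 detected genes alone the correlation of replicate 1 was 0.897 with replicate 2 and 0.920 with replicate 3. No list's count of detected members moved by over 1.5 times when an array was left out, and without replicate 1 no list median moved by more than 7.5 percentile points. Requiring every probe can by construction lower a count, and the cause of the other moves was not tested. The normalized level of 39 genes named always moved by more than its spread for 24 under the authors' table and for 18 without background correction. It did so for 18 with an offset of 50 and for 6 when only the DMSO arrays were normalized. When an array was left out the count was 0, which is no check. Leaving out 1 of 3 values cannot move their mean by more than their spread. Detection is limited by signal over background: Ager, Foxj1, Nqo1, Cdh2 and Hmox1 lay near the floor on at least 2 arrays, and probes of 1 gene often disagreed.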

Other observations

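Imprinted, pluripotency and fetal genes were partly detected. Of 20 such genes 8 were detected on all 3 arrays, or 40%, against 36.6% of all genes, unnamed ones included. Without replicate 1 the count was 10. Hmga1, a chromatin protein of embryos and tumours, read 5784, 9514.5 and 9251 on replicates 1, 2 and 3. Igf2bp1, a fetal RNA-binding protein, read 246, 222.5 and 248. Peg3, an imprinted zinc finger gene, read 185, 211 and 191. Cdkn1c, an imprinted inhibitor of the cell cycle, read 212, 128 and 141. H19, Igf2, Dlk1 and Grb10, all imprinted, were detected on none of the 3 arrays.

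The label gives the cells as female. Xist, the RNA that silences an X chromosome, read 928, 2513 and 1779, and all 4 of its probes were detected on each array. Eif2s3y, Kdm5d and Uty, genes of the Y chromosome, were detected on no array, with Kdm5d at 65.6, 72.8 and 55.2. Their X-linked relatives Eif2s3x, Kdm6a and Ddx3x were detected on all 3, Eif2s3x at 3123, 5926 and 5989.6. Ddx3y, another Y gene, was detected on all 3 arrays at 213, 136 and 144, by 1 of its 3 probes.

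Replicate 1 alone detected 404 genes, and 924 genes were detected on both other arrays but not on it.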
